A study of Mus musculus with 19 samples.

Results

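The mitochondrial genome transcripts of the mouse were taken as all genes on chromosome MT whose symbol starts with mt-, 37 of the 54532 genes in the deposited tables. They comprise 13 protein genes, 2 ribosomal RNA (rRNA) genes and 22 transfer RNA (tRNA) genes, and each class was described apart. The libraries, 1 per tissue, cover 19 tissues. All mice were of strain C57BL/6J with no treatment named, and were labelled as males of 8 weeks on a chow diet. The study asked which genes are specific to the kidney. FPKM, a read number scaled by gene length and by the total of assigned reads, was deposited for 13 tissues: aorta, brain, colon, eye, heart, kidney, liver, parathyroid, skeletal muscle (gastrocnemius), stomach, testis, thymus and white adipose tissue (WAT, labelled as epididymal fat). Raw counts were deposited for bone, brown adipose tissue (BAT), intestine, lung, skin and spleen. In the authors' group values of FPKM, the headers of all 13 tissues carry the prefix WT, taken here as wild type. The headers of the raw counts name no genotype. Each library is bulk tissue, so more mitochondrial RNA per cell and more cells rich in mitochondria cannot be told apart. With 1 library per tissue there was no test, and the 95% intervals are exact binomial (Clopper-Pearson) intervals that cover counting error only.

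The mitochondrial genome is a small circle that encodes core subunits of the respiratory chain and of ATP synthase, together with the rRNAs and tRNAs that translate them. Both strands are transcribed as long precursors, from which tRNAs are cut out, releasing the messenger RNAs (mRNAs) and rRNAs between them. All other subunits of these complexes are made from nuclear genes and imported. Heart, brown fat, oxidative muscle and the kidney tubule are known as tissues rich in mitochondria, and fragments of the mitochondrial genome also lie copied in nuclear chromosomes.

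The genome is so compact that neighbouring genes share bases, and one stretch of it has a near-identical copy on chromosome 1. The sequences below are shown because both features bear on how reads could be assigned to the genes. All come from the GENCODE M21 transcripts (GRCm38), whose coordinates equalled those of the deposited table for all 37 genes. The start of mt-Nd3 (MT:9459-9558, plus strand), a subunit gene of complex I, differs in 1 base from the nuclear pseudogene model Gm28438 (chr1:24613020-24613119, minus strand). The difference is T3C, with positions counted from 1 at the first base of the gene and the mitochondrial base given first; capitals mark it.
mt-Nd3: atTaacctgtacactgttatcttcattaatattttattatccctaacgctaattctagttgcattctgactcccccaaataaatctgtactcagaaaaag
Gm28438: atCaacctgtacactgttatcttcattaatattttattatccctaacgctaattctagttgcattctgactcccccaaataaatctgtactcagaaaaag
The start of mt-Nd4l (MT:9877-9976, plus strand), another complex I gene, is identical to that of Gm10222 (chr1:24612601-24612700, minus strand), so these lines have no capitals.
mt-Nd4l: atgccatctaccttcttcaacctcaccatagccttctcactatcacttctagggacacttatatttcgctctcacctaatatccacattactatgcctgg
Gm10222: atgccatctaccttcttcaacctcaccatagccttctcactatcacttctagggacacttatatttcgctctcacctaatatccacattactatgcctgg
The start of mt-Co1 (MT:5328-5427, plus strand), the catalytic subunit gene of complex IV, has a more diverged copy in Gm13340 (chr2:22589548-22589647, minus strand), from which it differs by C54A, A60G and G87A in these bases, marked in capitals.
mt-Co1: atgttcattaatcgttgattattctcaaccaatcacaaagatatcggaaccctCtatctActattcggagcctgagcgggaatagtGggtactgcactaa
Gm13340: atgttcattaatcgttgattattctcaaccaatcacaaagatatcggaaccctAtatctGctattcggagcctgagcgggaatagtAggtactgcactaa
The end of mt-Atp8 and the start of mt-Atp6, the mitochondrial subunit genes of ATP synthase, overlap by 43 bases (MT:7927-7969), shown in capitals within MT:7907-7989 on the plus strand.
mt-Atp8 and mt-Atp6: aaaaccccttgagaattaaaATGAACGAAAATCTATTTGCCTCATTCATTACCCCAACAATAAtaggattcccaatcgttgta
mt-Nd4l and mt-Nd4 overlap by 7 bases (MT:10167-10173), shown in capitals within MT:10147-10193 on the plus strand.
mt-Nd4l and mt-Nd4: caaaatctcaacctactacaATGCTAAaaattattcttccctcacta
mt-Nd5 and mt-Nd6 lie on opposite strands and overlap by 14 bases (MT:13552-13565). Whether the libraries kept strand is not given in the sources used here, so reads of mt-Nd6 and of RNA from the other strand there cannot be told apart.

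Libraries held 11135276 (colon) to 17263334 (parathyroid) reads assigned to genes. Of 76 tissue markers, 68 were highest in the tissue they mark, and all were in 14 of the 19 tissues. The libraries labelled kidney and eye had Xist, the RNA of the inactive X chromosome, at 90.9 and 97.5 FPKM and Y-linked transcripts at a summed 0.14 and 0.0894 FPKM, which goes against the label male. Aorta and parathyroid had both kinds of transcript. Thyroid markers summed to 58867 FPKM in parathyroid and 5609 FPKM in aorta, and epididymis markers to 14605 FPKM in WAT. Kidney markers summed to 293 FPKM in liver against 5597 FPKM in kidney. Skeletal muscle fibre markers summed to 21067 FPKM in skin against 83306 FPKM in skeletal muscle, and brown fat markers to 514 FPKM in thymus against 4079 FPKM in BAT. The part of these admixed tissues in the mitochondrial values was not tested.

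Heart and BAT gave the largest shares of their assigned reads to the mitochondrial genome, and testis gave less than 1%. The share was 19.6% of reads in heart (interval 19.5 to 19.6), 19.4% in BAT, 11.4% in skeletal muscle and 9.69% in the library labelled kidney. Liver followed with 6.25%, stomach with 5.70%, brain with 4.90% and WAT with 4.83%. The highest share was 24.8 times the lowest, which was 0.788% in testis (0.784 to 0.793). Between these lay intestine at 4.09%, thymus at 4.02%, eye at 4.01%, aorta at 3.59%, colon at 3.30%, skin at 3.05% and parathyroid at 3.03%. Bone was at 2.45%, lung at 1.93% and spleen at 1.92%. The spread between libraries of a tissue is not known, so neighbours as close as thymus and eye, skin and parathyroid, or lung and spleen cannot be put in order. Among the 13 tissues of the FPKM table, heart, skeletal muscle, kidney and testis were at least 2-fold from the median share of 4.83%, at 4.05, 2.36, 2.004 and 0.163 times it. A few abundant nuclear mRNAs also take large shares: thyroglobulin (Tg) took 17.2% of parathyroid reads, pepsinogen C (Pgc) 11.6% of stomach reads and albumin (Alb) 5.51% of liver reads. Leaving these genes out of the totals kept the number of tissues past 2-fold at 4.

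**Figure D1:**
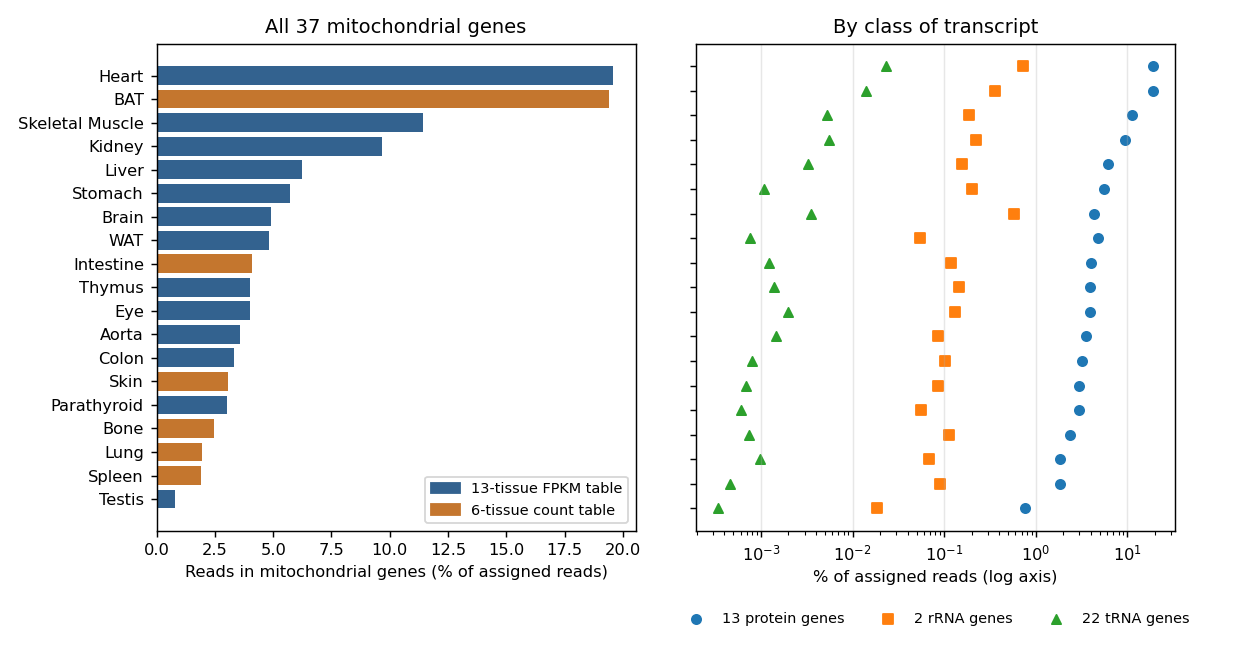
Share of assigned reads in mitochondrial genes for 19 tissues (1 library each), ordered by the share of all 37 genes; bars on the left are on a linear axis and points on the right split the share into 13 protein, 2 rRNA and 22 tRNA genes on a log axis. Heart (19.6%) and BAT (19.4%) stand above the rest, testis (0.788%) lies lowest, and the rRNA share of brain stands out to the right of its neighbours.

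The protein genes held most mitochondrial reads, from 88.2% of them in brain to 98.9% in WAT. A gene was called higher or lower in a tissue where its FPKM plus 0.1 was at least 2-fold from the median of its table, among genes with a median FPKM of at least 1. All 13 protein genes met that level in both tables. In heart 13 of 13 were higher, with a median log2 ratio of 2.20 and a range of 1.59 (mt-Atp8) to 2.70 (mt-Co3), where 11.2% of the 13842 genes tested were called higher. In skeletal muscle 12 of 13 were higher (median log2 ratio 1.33, all genes 6.96% called). The gene not called there was mt-Nd3, at a log2 ratio of 0.79. In the library labelled kidney 10 of 13 were higher (median log2 ratio 1.18, all genes 12.6% called), and the ratios of mt-Atp6, mt-Atp8 and mt-Co2 were 0.86, 0.79 and 0.93. In testis 13 of 13 were lower, with a median log2 ratio of -2.65, where 38.8% of all genes tested were called lower and their median log2 ratio was -0.47. In BAT 13 of 13 were higher than the median of the count table (median log2 ratio 3.16), where 8.45% of its 14882 genes tested were called higher.

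Outside these 5 tissues few protein genes were called against the median of their own table. Brain had mt-Nd3 higher, at 153 FPKM against a 13-tissue median of 52.8 FPKM (log2 ratio 1.54, all genes 19.9% called higher). Colon had mt-Nd2, mt-Nd5 and mt-Nd4l lower, at log2 ratios of -1.40, -1.03 and -1.66 (all genes 13.1% called lower), with mt-Nd4l at 42 reads. These are complex I genes, but mt-Nd1, mt-Nd3, mt-Nd4 and mt-Nd6 of the same complex were not called, at -0.43, -0.23, -0.79 and -0.91. Against the median of the 6 tissues of the count table, the 8 calls outside BAT were all of mt-Co2, mt-Atp6, mt-Co3, mt-Nd3 and mt-Nd4l, genes with a near-identical copy on chromosome 1. Lung had mt-Nd3 and mt-Nd4l higher (all genes 15.7% called) and mt-Co2, mt-Atp6 and mt-Co3 lower (6.41%). Bone had mt-Nd3 lower (8.95%), spleen had mt-Co3 lower (11.5%) and skin had mt-Nd4l lower (9.89%), at 19 reads. The calls in bone, spleen, skin and brain and the higher calls in lung are near or below the shares of all genes. They are thus no result about the 13 genes as a set. When the reads of the nuclear copies were added to their mitochondrial genes, a setting chosen after seeing the data, 4 of these 8 calls were left, brain and colon had the calls above, and mt-Nd3 was also called higher in skeletal muscle.

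More calls were made in these tissues when all 19 were set on one scale, that of the FPKM table. Against the median of 19 tissues, spleen had 10 of 13 protein genes lower, where 14.2% of 13906 genes tested were. Bone had 7 lower (11.9% of all genes) and lung 7 (4.76%). Intestine had 3 lower (18.0%) and skin 3 (4.77%), in both mt-Atp6, mt-Atp8 and mt-Nd4l. Of these 30 calls, 22 were of the 6 genes from mt-Co2 to mt-Nd4l along the genome and 8 of other genes. Those 8 were mt-Cytb in bone, mt-Nd1, mt-Nd2, mt-Nd4 and mt-Cytb in spleen, and mt-Co1, mt-Nd1 and mt-Cytb in lung. The tables were deposited apart, and a difference between tables cannot be told apart from one between their tissues.

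The values of liver, stomach and skeletal muscle depended on the scale. Over all genes tested, the median log2 ratio was -0.77 in liver, -0.28 in stomach and -0.80 in skeletal muscle. With median-of-ratios size factors, which set such medians to about 0, the median log2 ratio of the 13 protein genes was 1.497 in liver in place of 0.41, and 13 of 13 were called higher, where 17.1% of all genes were. In stomach 5 of 13 were then called higher (12.8% of all genes), and their median log2 ratio was 0.89 in place of 0.31. Heart, skeletal muscle, kidney and testis had the same direction for all 13 genes on that scale, with median log2 ratios of 2.54, 2.48, 1.43 and -1.90.

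**Figure D2:**
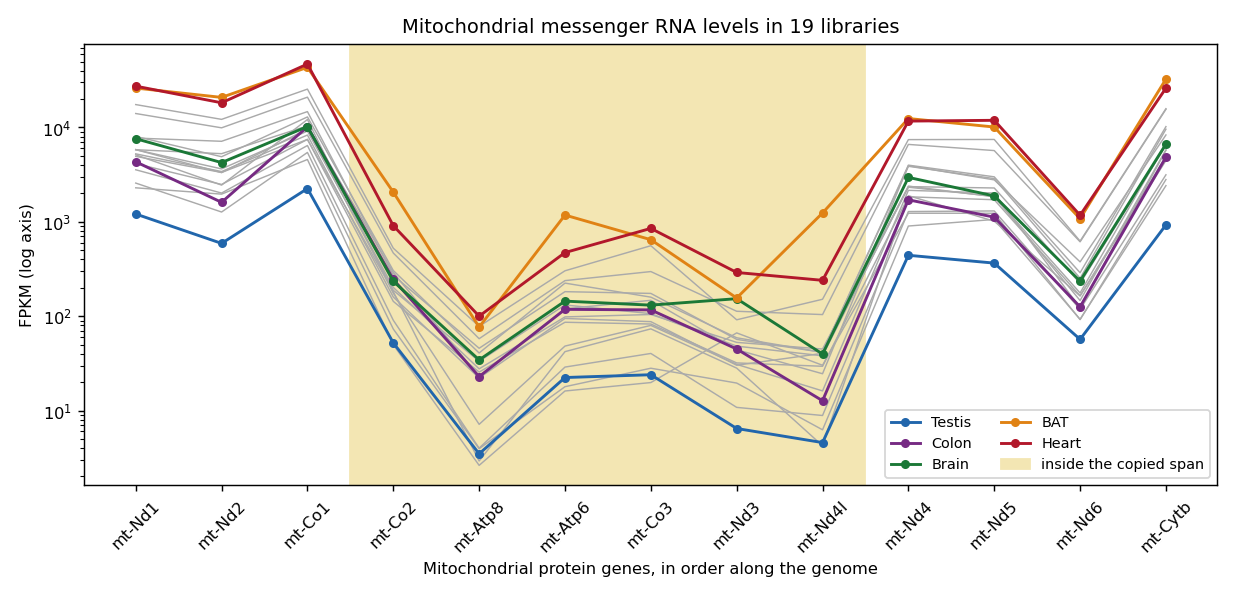
FPKM (log axis) of the 13 mitochondrial protein genes in their order along the genome, 1 line per library, with 5 tissues in colour and the other 14 in grey; the count table was put on the FPKM scale. In every library the 6 shaded genes, from mt-Co2 to mt-Nd4l, lie below mt-Nd1, mt-Nd2, mt-Co1, mt-Nd4, mt-Nd5 and mt-Cytb, whichever tissue is highest. The stretch copied on chromosome 1 also takes in the end of mt-Co1 and the start of mt-Nd4, which are not shaded.

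The order of the 6 highest mRNAs by full-length FPKM was nearly the same in all tissues. Lower ranks varied more, as for mt-Nd4l, which ranked from 8 to 13 over the 19 libraries. mt-Co1, for the catalytic core of cytochrome c oxidase, was the highest per length in 19 of 19 libraries, with 2253 FPKM in testis, a median of 10234 FPKM and 47043 FPKM in heart over the 13 tissues, and 43414 FPKM in BAT. mt-Cytb, the mitochondrial subunit gene of complex III, was the second or the third in all libraries (928 FPKM in testis, median 6763, 26151 in heart). Among the complex I genes, mt-Nd1 ran from 1211 to 27441 FPKM (median 5827), mt-Nd2 from 591 to 18276 FPKM (median 4246) and mt-Nd4 from 442 to 11693 FPKM (median 2958). mt-Nd5, whose protein forms part of the proton-pumping arm, ran from 365 to 11918 FPKM (median 2285). These 6 genes were the 6 highest in every library of both tables, and testis was the lowest and heart the highest of the 13 tissues for each of them. mt-Co1 and mt-Nd4 lie partly in a stretch copied on chromosome 1, described below. With all reads of mt-Nd4 set over its 502 bases outside that stretch, it would be at 18167 FPKM in kidney, above mt-Cytb at 15591 FPKM. The rank of mt-Nd4 thus depends on the length used, and which length applies was not tested.

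The other complex I genes were lower. mt-Nd6, the only protein gene on the minus strand, had a median of 235 FPKM and ran from 56.8 FPKM in testis to 1175 FPKM in heart. mt-Nd3 ran from 6.45 to 291 FPKM (median 52.8) and mt-Nd4l from 4.57 to 239.9 FPKM (median 40.4). Of the other complex IV genes, mt-Co2, which carries the first copper site for electrons from cytochrome c, ran from 52.2 to 910.2 FPKM (median 245). mt-Co3 ran from 24.0 to 852 FPKM (median 131). Of the ATP synthase genes, mt-Atp6, for the subunit that forms the proton path, ran from 22.4 to 472 FPKM (median 132), and mt-Atp8 from 3.47 to 100.1 FPKM (median 33.3). Each of these 7 genes was also lowest in testis and highest in heart among the 13 tissues. Over the 13 protein genes the median ratio of the highest to the lowest tissue was 28.0, against 13.8 over all genes tested.

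The genes mt-Co2, mt-Atp8, mt-Atp6, mt-Co3, mt-Nd3 and mt-Nd4l, which stood low in the FPKM order, lie side by side. They fall within MT:6390-11042, a stretch of 4653 bases. The alignments of this stretch to 7 annotated pseudogene models add up to 4140 bases, where the few bases shared by Gm10222 and Gm28439 count in both. These models lie in the same order at chr1:24611535-24616197 on the minus strand. The gaps between neighbouring models equalled those on the mitochondrial genome in 5 of 6 cases, and the remaining gap was 74 bases on chromosome 1 against 73. Gm28661 (mt-Co2), Gm10925 (mt-Atp6), Gm28437 (mt-Co3) and Gm10222 (mt-Nd4l) had 100% identity over 681, 678, 783 and 294 aligned bases, and Gm28438 (mt-Nd3) had 99.7% over 345 bases. Gm29216 matched the last 483 bases of mt-Co1 with 1 mismatch, and Gm28439 the first 876 bases of mt-Nd4 with none. Of all stretches of 50 bases, 100% of those of mt-Co2 also occurred in an annotated nuclear transcript, 99.5% of mt-Atp6, 99.9% of mt-Co3, 97.99% of mt-Nd3 and 98.8% of mt-Nd4l. The share was 62.2% for mt-Nd4, 51.1% for mt-Co1, 8.19% for mt-Nd2 and 7.61% for mt-Nd5, and 0% for mt-Nd1, mt-Cytb and mt-Nd6. mt-Atp8 had 0% as well, and no annotated model covers its place between Gm28661 and Gm10925. The sequence of chromosome 1 between the models was not analysed here, so mt-Atp8 is inside the stretch by position only.

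The 6 protein genes inside it had 13-tissue medians of 33.3 to 245 FPKM, and the 5 wholly outside had 235 (mt-Nd6) to 6763 FPKM. In each library the median FPKM of mt-Nd1, mt-Nd2, mt-Nd5 and mt-Cytb was set over the median of the 6 genes inside. This ratio was 36.8 (colon) to 68.3 (kidney) in the FPKM table and 25.7 (BAT) to 130.3 (bone) in the count table. With mt-Nd6 among the genes outside, it was 19.9 (colon) to 64.4 (WAT) and 22.8 (BAT) to 101.7 (bone). mt-Nd6 alone was close to the genes inside, at 1.56 (colon) to 4.59 (WAT) times their median in the FPKM table and 1.18 (BAT) to 5.96 (bone) times in the count table. In BAT it was below mt-Co2, mt-Nd4l and mt-Atp6. mt-Co1 and mt-Nd4, which lie partly inside, were high. The 5 models of mt-Co2, mt-Atp6, mt-Co3, mt-Nd3 and mt-Nd4l together took 1.06 (skeletal muscle) to 1.56 (parathyroid) times as many reads as these 5 genes in the FPKM table, and 0.383 (BAT) to 1.11 (bone) times in the count table. The 7 models took 0.484% (lung) to 1.92% (colon) of the number of mitochondrial reads. With the reads of all annotated copies added to the mitochondrial genes, the ratio of outside (without mt-Nd6) to inside was 18.1 to 29.8 in the FPKM table and 20.6 to 49.8 in the count table. How reads that match both places equally well were assigned or dropped is not given in the sources used here, and its part in the low levels was not tested.

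Each model varied with its mitochondrial gene across tissues. Over the 13 tissues the Pearson correlation of the log2 values was 0.995 for Gm28661 and mt-Co2, 0.994 for Gm10925 and mt-Atp6, 0.981 for Gm10222 and mt-Nd4l, 0.971 for Gm28437 and mt-Co3 and 0.937 for Gm28438 and mt-Nd3. The points of each pair share their library and its total. The read ratio of Gm10222 to mt-Nd4l lay between 0.284 and 2.48 in 18 libraries and was 0.135 in BAT, where mt-Nd4l had 6150 reads and the model 833. mt-Nd4l in BAT was at 1241 FPKM, a log2 ratio of 6.62 to the median of the count table, the highest of any protein gene there. With the model's reads added the log2 ratio was 5.51. mt-Nd3 in lung had 346 reads and Gm28438 24, and in brain the numbers were 905 and 303. These were the lowest ratios of that pair in the count table and in the FPKM table, 0.0694 and 0.335. With the model's reads added, the log2 ratio of mt-Nd3 was 1.24 in brain in place of 1.54 and 0.75 in lung in place of 1.17. The more diverged model Gm13340 on chromosome 2, with 97.6% identity to mt-Co1, held 3760 reads over all libraries, 0.0572% of those of mt-Co1.

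**Figure D3:**
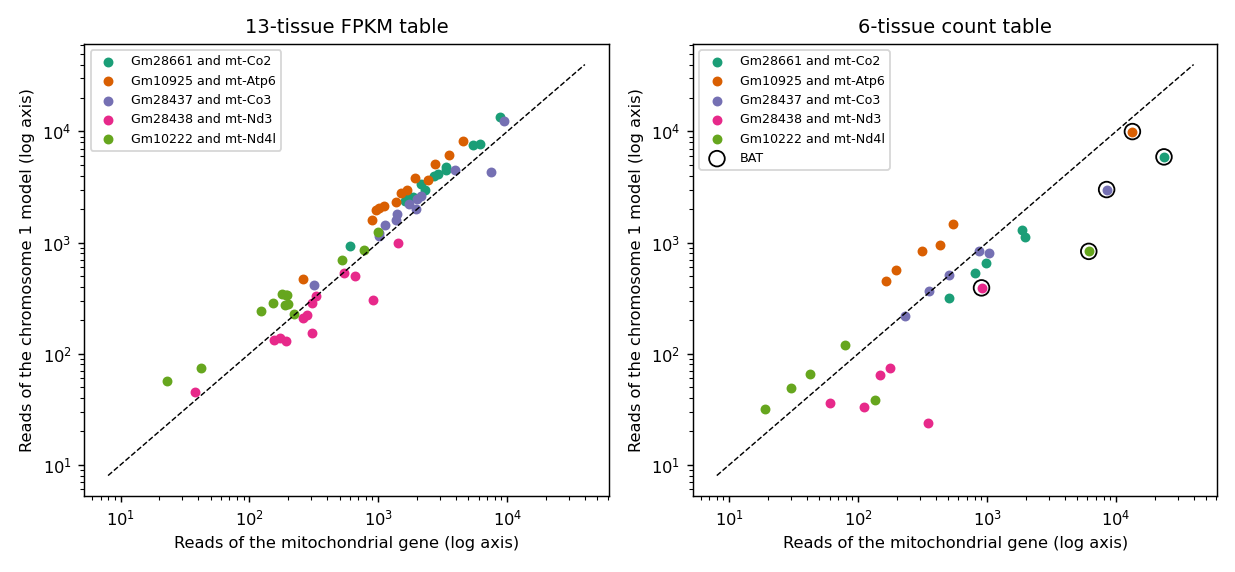
Reads of 5 chromosome 1 pseudogene models against reads of the matching mitochondrial gene on log axes, 1 point per library and pair, with the 13-tissue FPKM table on the left (reads recovered from FPKM) and the 6-tissue count table on the right; the dashed line marks equal numbers. In the FPKM table Gm28661 and Gm10925 lie above the line in all 13 libraries; in the count table Gm28661 and Gm28438 lie below it in all 6, and the circled BAT points of all 5 pairs lie below it, with Gm10222 at 0.135 times mt-Nd4l.

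Relative to mt-Co1 the other high mRNAs differed between tissues by up to 3.21-fold. mt-Nd2 was at 15.8% of the mt-Co1 FPKM in colon (interval 15.57 to 16.05) and at 50.7% in WAT (50.3 to 51.1), with a median of 39.8%. Intestine had 20.2%, the second lowest value. mt-Nd5 ran from 11.0% in colon to 29.3% in skeletal muscle, and mt-Nd4 from 16.6% in spleen and 16.8% in colon to 37.8% in WAT. mt-Nd1 was at 42.2% in intestine (41.9 to 42.6) and 42.5% in colon (42.1 to 42.9), each inside the interval of the other, and at 74.3% in brain. mt-Nd6 was at 1.01% in intestine and 1.23% in colon and at 3.62% in WAT. Colon and intestine were thus the lowest pair for mt-Nd1, mt-Nd2 and mt-Nd6, although they come from different tables. mt-Cytb ran from 41.2% in testis to 80.1% in WAT, so testis was low in mt-Cytb also in proportion to its mt-Co1.

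**Figure D4:**
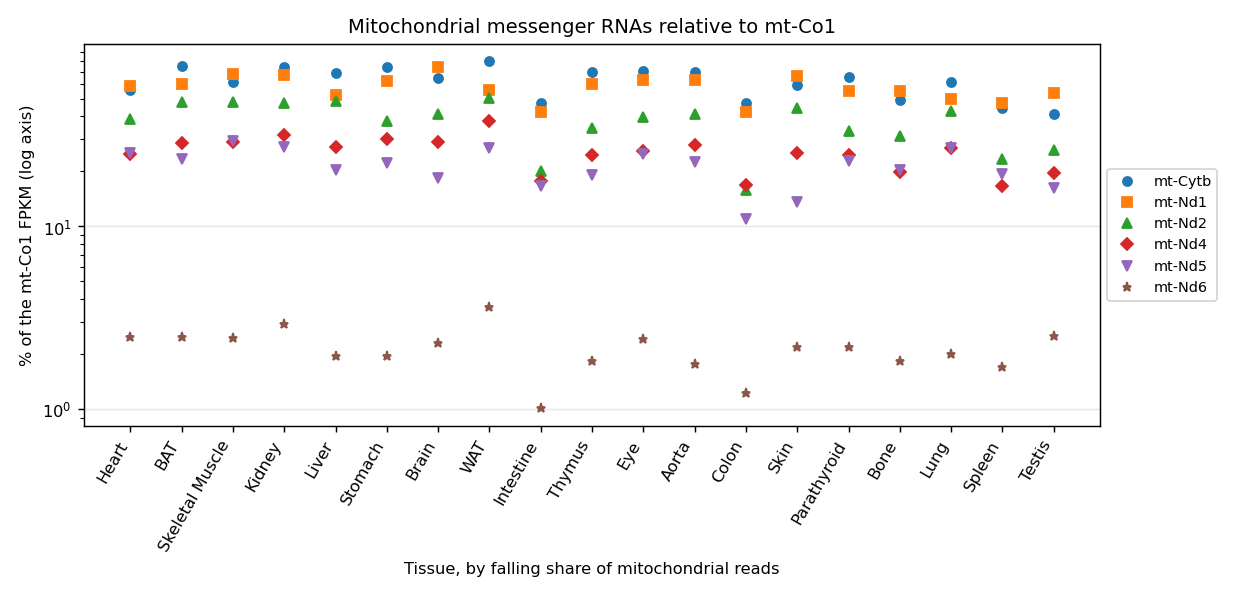
FPKM of 6 mitochondrial mRNAs as a percentage of mt-Co1 (log axis) in 19 tissues, ordered from the highest to the lowest share of mitochondrial reads; 1 point per gene and library. Colon and intestine have the lowest points of mt-Nd2 (15.8 and 20.2%) and mt-Nd6 (1.23 and 1.01%), and WAT has the highest of mt-Nd2, mt-Nd4, mt-Nd6 and mt-Cytb.

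The mitochondrial rRNAs stood apart in brain. mt-Rnr1, the rRNA of the small subunit of the mitochondrial ribosome, was at 74.6 FPKM in testis, a median of 635 FPKM and 2376 FPKM in brain, the highest tissue. mt-Rnr2, the rRNA of the large subunit, was at 73.0 FPKM in testis, a median of 571 FPKM and 3365 FPKM in heart, with brain at 2198 FPKM. Brain thus stood at log2 ratios of 1.90 and 1.94 for the rRNAs, while its 13 mRNAs had a median of 0.00. There were 13.3 rRNA reads per 100 mRNA reads in brain (13.2 to 13.4), against a 13-tissue median of 2.59 and 1.14 in WAT (1.12 to 1.16), the lowest. Heart had 3.88, kidney 2.33 and skeletal muscle 1.68. Without brain, the highest FPKM ratio of rRNA to mRNA was 3.23 times the lowest, in place of 11.2 times. In the count table the number ran from 1.89 in BAT to 4.97 in spleen. The FPKM ratio of mt-Rnr1 to mt-Rnr2 was 0.618 in heart, 1.02 at the median and 1.54 in stomach. The labels name total RNA, but whether rRNA was removed or poly(A) RNA selected is not given in the sources used here, so the ratios describe these libraries.

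The 22 tRNA genes took 0.000337% (testis) to 0.0230% (heart) of the reads. Among them mt-Tf, mt-Td and mt-Tk had 0 reads in all 19 libraries, which allows up to 3 reads in each. By position mt-Td and mt-Tk lie inside the stretch copied on chromosome 1, and mt-Tf lies outside it. Also inside are mt-Ts1, mt-Tg and mt-Tr, which had 1957, 76 and 81 reads over all libraries. In the authors' kidney mean mt-Td was at 0.275 FPKM. mt-Tv and mt-Ts2 had 1 read in all, mt-Tl2 had 3 and mt-Th had 4. mt-Tw (tryptophan) had the most reads, 2257 over all libraries, of which 924 in heart, where it was at 980.8 FPKM against 17.6 FPKM in testis. mt-Ts1 and mt-Tl1 followed with 1957 and 1560 reads. Of the tRNA genes 14 passed the level in the FPKM table. Those higher were 13 in heart, 11 in kidney, 8 in skeletal muscle, 8 in liver and 7 in brain, beside 11.2%, 12.6%, 6.96%, 7.67% and 19.9% of all genes. Those lower were 14 in testis and 8 each in parathyroid, WAT and colon, beside 38.8%, 2.80%, 5.14% and 13.1% of all genes. Many of these calls rest on a few reads. Counting only genes with at least 10 reads, either seen or corresponding to the median FPKM at that library's total, 13 were higher in heart, 9 in kidney, 6 in skeletal muscle, 6 in liver and 7 in brain. By the same measure 8 were lower in testis, 5 in parathyroid, 5 in WAT and 4 in colon. In BAT 10 of the 10 that passed in the count table were higher, beside 8.45% of all genes, and 9 of them had 10 reads. mt-Ts1 reached 823 reads and 715 FPKM in BAT, against 461 reads and 475 FPKM in heart. It overlaps the end of mt-Co1 by 3 bases on the opposite strand. Whether these reads come from finished tRNAs or from precursors was not tested. The genes with the most and with no reads are shown for mt-Tw (MT:4950-5016, plus strand) and mt-Tk (MT:7700-7764, plus strand), with no bases marked.
mt-Tw: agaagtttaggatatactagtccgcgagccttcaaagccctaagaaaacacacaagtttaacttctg
mt-Tk: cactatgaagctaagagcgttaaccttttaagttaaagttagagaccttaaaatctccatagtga

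For kidney the authors also deposited a mean, which the values show to be that of 3 libraries including the single one. The mitochondrial share was 9.69% in the single library, 9.57% in the mean and 9.52% in the mean of the remaining libraries. The single library over the mean of the remaining ones gave a ratio of 0.768 (mt-Co3) to 1.11 (mt-Nd1) for the 13 protein genes, with a median of 1.02. The rRNA genes were at 1.07 and 1.12. With the mean of the remaining libraries in place of the single one, the kidney share was less than 2 times the median of the 13 tissues and 3 tissues, not 4, were past 2-fold.

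Most nuclear genes of these complexes were also higher in heart and lower in testis, over a narrower range. Of 74 nuclear subunit genes, 62 were higher in heart (median log2 ratio 1.38) and 51 lower in testis (median -1.40), beside 11.2% and 38.8% of all genes tested. In skeletal muscle 10 were higher (median 0.65) and in kidney 3 (median 0.49), beside 6.96% and 12.6%. Their median ratio of highest to lowest tissue was 7.90, against 28.0 for the mitochondrial protein genes. Of complex I, 28 of 36 genes were higher in heart. Ndufb11 ran from 11.7 FPKM in testis to 292 FPKM in heart, while Ndufa6 was highest in colon, at 506 FPKM. Of complex II, which has no mitochondrial gene, 4 of 4 were higher in heart and 2 of 4 in kidney. Sdha, its flavoprotein, was at 1709 FPKM in heart, 1148 FPKM in kidney and 188 FPKM in testis. Of complex III, 9 of 9 were higher in heart, with cytochrome c1 (Cyc1) at 706 FPKM there and 41.5 FPKM in testis. Of complex IV, 7 of 10 were higher, with Cox7b at 1017 FPKM in heart and 15.9 FPKM in testis. Of ATP synthase, 14 of 15 were higher, with the catalytic subunit gene Atp5b at 5097 FPKM in heart and 592 FPKM in testis. Of 7 tissue isoform genes of complex IV, of muscle and of other tissues, 5 passed the level. Of these 4 were higher in heart and 3 in skeletal muscle, beside 11.2% and 6.96% of all genes. In skeletal muscle 1 was lower, and in testis 4 were lower, beside 38.8% of all genes there, and 1 was higher. From this list, the muscle isoform gene Cox6a2 was at 1847 FPKM in heart, 1076 FPKM in skeletal muscle and 0.870 FPKM in kidney.

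The summed FPKM of mitochondrial and nuclear subunit genes had a Pearson correlation of 0.849 on the log2 scale (Spearman 0.698) over the 13 tissues, whose points share library and total. Without heart and testis, the tissues farthest from the median of the nuclear sum, it was 0.608. Mitochondrial FPKM was 0.821 times nuclear FPKM in testis and 3.32 times in skeletal muscle, with 3.14 in heart, 2.93 in aorta, 2.73 in kidney and 2.69 in liver. Aorta had this ratio although its mitochondrial sum was the 10th and its nuclear sum the 12th of 13. Colon stood off this relation. Its nuclear sum of 27604 FPKM was the second highest of 13 and its mitochondrial sum of 24504 FPKM the 11th, a ratio of 0.888. Without colon, a setting chosen after seeing the data, the correlation was 0.931. On the scale of the first table, intestine was at 1.42 and BAT at 2.55.

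**Figure D5:**
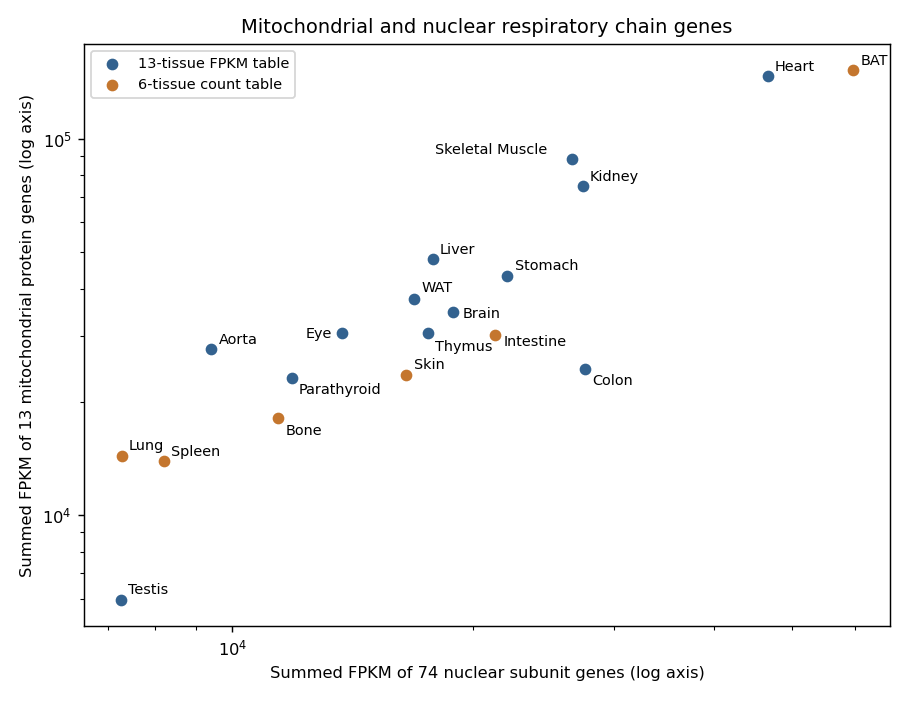
Summed FPKM of the 13 mitochondrial protein genes against that of 74 nuclear subunit genes of the same complexes and complex II, log axes, 1 point per tissue; the 6 tissues of the count table were put on the FPKM scale. Heart and BAT lie at the upper right and testis at the lower left, and colon lies below the others with a similar nuclear sum, such as kidney and skeletal muscle.

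Of 16 genes that transcribe and copy the mitochondrial genome, 1 was higher in heart (11.2% of all genes tested) and 5 were lower in testis (38.8%), and their summed FPKM had a correlation of -0.23 with the mitochondrial sum over the 13 tissues. Single members, named after their values were seen, went both ways. The transcription factor gene Tfb2m was at 0.775, the elongation factor gene Tefm at 0.769 and the helicase gene Twnk at 0.748. Their Spearman correlations were 0.566, 0.808 and 0.588. The polymerase gene Polg was at about -0.50 (Spearman -0.434). Tfam was also at about -0.50, but its Spearman correlation was 0.027, so its ranks showed no inverse relation. The mitochondrial RNA polymerase gene Polrmt ran from 11.8 FPKM in stomach to 27.0 FPKM in brain. Tfam, whose protein packs mitochondrial DNA and starts its transcription, was named after its values were seen. It was at 34.5 FPKM in heart and at 141 FPKM in testis, where every mitochondrial mRNA was lowest among the 13 tissues. FPKM is per gene here, so transcript forms of Tfam, and whether each encodes a mitochondrial protein, cannot be told apart. Of 22 genes of RNA processing and stability, 3 were higher in heart and 3 lower in testis, beside 11.2% and 38.8% of all genes. Nsun4, an rRNA methyltransferase gene, was at 209.6 FPKM in testis against a median of 12.0 FPKM. Lrpprc, whose protein stabilises mitochondrial mRNAs, was also named after its values were seen, at 96.3 FPKM in heart and 22.6 FPKM in testis (correlation 0.806). Of 78 mitochondrial ribosomal protein genes, 77 passed the level, of which 9 were higher in heart and 24 lower in testis, shares near or below the 11.2% and 38.8% of all genes and so no result about this list. Of 13 genes of other abundant mitochondrial proteins, 5 were higher in heart and 8 lower in testis, beside the same shares. Among them the outer membrane channel gene Vdac1 ran from 26.9 FPKM in testis to 1335 FPKM in skeletal muscle, and the ADP/ATP carrier gene Slc25a4 from 13.6 FPKM in liver to 2355 FPKM in heart. Of 9 regulators of biogenesis, 4 were higher in heart and 4 in kidney (11.2% and 12.6% of all genes), and 4 were lower in testis and 5 in liver (38.8% and 41.2% of all genes). The nuclear receptor gene Esrra was at 163 FPKM in heart and highest in colon, at 220.0 FPKM.

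Among 7080 nuclear protein-coding genes at a median FPKM of at least 10, the 10 whose log2 values were most like the summed mitochondrial mRNA over the 13 tissues had correlations of 0.925 to 0.984. The median over all 7080 was -0.05, and the 95th percentile was 0.649. D10Jhu81e led with 0.984, at 333 FPKM in heart, 183 FPKM in skeletal muscle, 179 FPKM in kidney and 25.9 FPKM in testis. Acot13, an acyl-CoA thioesterase gene, followed at 0.943 and Ndufa4, whose protein is found with cytochrome c oxidase, at 0.941. The complex I assembly factor gene Ndufaf4 was at 0.936, Taco1, a translational activator of mt-Co1, at 0.933, and the complex I subunit genes Ndufa10 and Ndufs7 at 0.933 and 0.925. Tmem143, fumarase (Fh1) and malonyl-CoA decarboxylase (Mlycd) completed the list. The 74 nuclear subunit genes had a median correlation of 0.821, from -0.16 to 0.933.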

How the data were processed

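RNA of 19 mouse tissues, 1 library each, was grouped by the tissue in the labels. RNA was isolated with Trizol and treated with DNase on a column, per the labels' protocols. The submitters' processing notes name DESeq2 with no role. Not given in the sources used here were library kit, aligner, build and the treatment of reads that match several places. The authors deposited FPKM for 13 tissues, with a group table in which kidney is a mean, and raw read counts for 6 tissues. Whole reads were recovered from the deposited FPKM with each library's total and gene lengths; mitochondrial reads came out whole within 0.01. Counts of the 6 tissues were put on the FPKM scale with the same lengths. The authors' second FPKM table was not used here.

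Copies were found with BLAST+ 2.17.0 (at least 90% identity over 100 bases) among GENCODE M21 transcripts. Calls used a 2-fold rule with 0.1 FPKM added and a median FPKM of at least 1. The rule was tested on simulated data. All members are named. From pathway lists, at most 4 genes each were named by rule (highest and lowest median, largest and smallest range). Tfam, Tfb2m, Tefm, Twnk, Polg and Lrpprc were named after their values were seen. The 10 most alike nuclear genes and the nuclear copies by reads were named as well. The members and lists were chosen with earlier results of these data known. Alternatives covered scale, fold, filter, copies and libraries. Python 3.11.15, numpy 2.4.6, pandas 2.3.3, scipy 1.17.1 and matplotlib 3.10.9 were used. With 1 library per tissue the p-values of a test could not be had.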

Additional observations from a re-analysis of the deposited data

How the results depend on the processing

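No paired analysis was possible because each tissue has 1 library. The same 6 mRNAs were highest in 100% of libraries under all 3 alternatives tried. None of these 3 could show the effect of reads dropped because they match both MT and chromosome 1. The number of tissues past 2-fold in their mitochondrial share was 3 or 4 under 7 alternatives. It was 3 where kidney was left out or replaced by the authors' mean or by the mean of the remaining kidney libraries, and 4 otherwise. Kidney was at 2.004 times the median in the main setting, and leaving it out removes its call by construction. The 36 higher calls of protein genes in the FPKM table became 58 with median-of-ratios size factors, 9 at 4-fold and 23 without kidney, eye, aorta and parathyroid. The 16 lower calls became 29 at 1.5-fold and 45 with all 19 tissues on one scale. The fewer or more calls at 4-fold, 1.5-fold and with other numbers of tissues follow from how these settings are built. With size factors the added calls were in liver (13 in place of 0), stomach (5 in place of 0), kidney (13 in place of 10) and skeletal muscle (13 in place of 12). The share of all genes called higher on that scale was taken for liver (17.1%) and stomach (12.8%) only. The added calls in kidney and skeletal muscle are thus no result about the 13 genes. No share of all genes was taken for the totals above, which describe the settings only. Why the scale differed between libraries was not tested. The 11.2-fold range of the rRNA to mRNA ratio was 11.7-fold in reads, 2.84-fold among the 6 tissues of the count table and 3.23-fold without brain. The correlation with nuclear subunit genes, 0.849, was 0.871 with nuclear reads only in the totals, 0.888 with size factors, 0.608 without heart and testis, 0.886 without kidney, eye, aorta and parathyroid and 0.894 over 19 tissues. It was 0.931 without colon and 0.777 without testis, both chosen after seeing the data, as was the setting without brain. One library per tissue limits all comparisons, since the spread between animals is unknown. Depth limits the tRNA genes most, as many calls rest on under 10 reads.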
